A study of Mus musculus with 71 samples.

Results

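RNA of pre-mRNA splicing factors was measured in whole brain of mice kept awake for 6 h and of mice left undisturbed in the home cage. The set described here is every probe set whose platform annotation gave it a single gene symbol of the serine/arginine-rich (SR) splicing factors (Srsf), the heterogeneous nuclear ribonucleoproteins (Hnrnp), the kinases Clk1 to Clk4, Tra2a, Tra2b or Arglu1. It holds 109 of the 45037 probe sets tested and 36 genes: 58 probe sets of hnRNP genes, 33 of SR genes, 5 of Clk genes and 13 of Tra2a, Tra2b and Arglu1. Another 7 probe sets name a member beside other symbols and were left out.

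The mice were males, 12 to 13 weeks old, of the DBA/2J, C57BL/6J or AKR/J inbred strain, with no transgene or drug named in the labels. They were killed at ZT0, ZT6, ZT12 or ZT18 (hours after light onset), so a mouse killed at ZT6 had been kept awake over the 6 h from light onset and one killed at ZT18 over the 6 h from dark onset. Each of the 71 Affymetrix arrays carried RNA pooled from 3 mice of 1 group. Of the 24 groups all had 3 arrays but 1, the sleep-deprived AKR/J mice of ZT18, which had 2, giving 36 control and 35 sleep-deprived arrays. The study's question was how sleep loss changes RNA in the brain and whether the response depends on strain and time of day.

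Splicing removes introns from pre-mRNA, and alternative splicing chooses among exons. SR proteins bind exonic sequences and mostly favour the use of the exon next to them, whereas hnRNP proteins often act in the opposite direction. Clk kinases phosphorylate the arginine/serine-rich stretch of SR proteins in the nucleus, which moves them out of nuclear speckles. The Tra2 proteins are SR-like activators, and Arglu1 is an arginine- and glutamate-rich nuclear protein that acts in transcription and splicing. Many of these genes carry a highly conserved "poison" exon whose inclusion sends their own mRNA to nonsense-mediated decay, so 1 gene can give transcripts of different fates and probe sets of 1 gene need not measure the same transcripts.

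The promoters of the pair of genes with the largest rise or fall on 1 bright probe set (Tra2a and Hnrnpdl), of Srsf6, the gene whose probe sets moved in opposite directions, and of Srsf10 are shown first. Each is the 250 bases before the RefSeq transcript start in GRCm38.p6, in the direction of transcription: Tra2a at chr6:49264053-49264302 on the minus strand, Srsf6 at chr2:162931258-162931507 on the plus strand, Srsf10 at chr4:135855821-135856070 on the plus strand and Hnrnpdl at chr5:100039223-100039472 on the minus strand. Capitals mark TGACGT on either strand (ACGTCA as printed where it lies on the other one), the core of the cAMP response element, including the full palindrome TGACGTCA in which both strands match.
Tra2a: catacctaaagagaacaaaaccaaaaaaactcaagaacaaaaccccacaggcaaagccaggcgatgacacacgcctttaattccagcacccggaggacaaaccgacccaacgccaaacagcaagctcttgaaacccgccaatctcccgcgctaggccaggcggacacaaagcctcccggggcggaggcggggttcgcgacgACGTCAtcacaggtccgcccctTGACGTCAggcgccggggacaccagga
Srsf6: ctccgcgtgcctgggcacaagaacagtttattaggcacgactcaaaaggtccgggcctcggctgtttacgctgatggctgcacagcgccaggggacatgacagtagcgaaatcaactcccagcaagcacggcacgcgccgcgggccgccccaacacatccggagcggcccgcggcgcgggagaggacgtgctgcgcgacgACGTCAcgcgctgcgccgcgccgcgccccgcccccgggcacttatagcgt
Srsf10: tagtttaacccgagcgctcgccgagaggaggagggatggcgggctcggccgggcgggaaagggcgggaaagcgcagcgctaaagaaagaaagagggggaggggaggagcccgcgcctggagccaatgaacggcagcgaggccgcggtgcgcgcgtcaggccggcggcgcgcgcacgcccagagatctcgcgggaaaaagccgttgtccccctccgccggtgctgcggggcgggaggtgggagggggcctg
Hnrnpdl: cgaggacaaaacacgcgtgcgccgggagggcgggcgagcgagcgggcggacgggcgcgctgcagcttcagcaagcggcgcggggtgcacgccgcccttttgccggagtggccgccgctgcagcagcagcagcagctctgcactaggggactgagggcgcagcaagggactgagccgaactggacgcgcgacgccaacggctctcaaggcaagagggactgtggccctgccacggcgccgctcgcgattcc

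RefSeq promoters were found for 32 of the 36 genes, 44 in all. Clk1, Arglu1, Hnrnpll and Hnrnpul2 were not matched. TGACGT on either strand lay in 22.7% of the members' promoters (10 of 44, of the 9 genes Clk4, Hnrnpa2b1, Hnrnph1, Hnrnpm, Srsf3, Srsf6, Srsf11, Tra2a and Tra2b) and in 6.47% of all 32851 promoters of that length. The full TGACGTCA lay in 2 of the members' promoters, of Tra2a and Clk4 (4.55%, against 1.55% of all). The heat shock element pair GAANNTTC was in 11.4% against 6.69%, and the E-box CACGTG in 6.82% against 6.02%. The members' promoters were richer in G and C, with a median of 66.6% against 52.4%. Of the printed promoters, that of Srsf6 held 1 match and those of Srsf10 and Hnrnpdl none.

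Values are log2 signal after RMA summary and a difference is sleep-deprived minus control. The member probe sets had mean levels from 3.64 to 12.27, and 98 of the 109 lay above the median probe set (5.68). Of the 109, 24 end in _s_at or _x_at and can match several transcripts, and genes with many near-identical copies in the genome, such as Hnrnpa1, may share signal with them. Tests were made with limma over all probe sets, and a probe set was called at a Benjamini-Hochberg adjusted p under 0.05. Over all arrays, 6 stood apart on the spike-in controls added to every target: 1 control array each of AKR/J at ZT0 and ZT6 and of C57BL/6J at ZT0, and 1 sleep-deprived C57BL/6J array at ZT0 and 2 at ZT6. Neuron, astrocyte and oligodendrocyte markers were bright on every array. Among lists expected to be absent, liver had a summed level of at most 6.26 and skeletal muscle of at most 9.22. The muscle gene Acta1 had a mean level of 7.33, above the median probe set. The summed signal of 6 pituitary hormone genes ranged from 7.88 to 14.24, with none of the 6 called after sleep deprivation. Of the other markers, Mag, Mog and Cnp of oligodendrocytes (3 of 5) gave -0.10, -0.12 and -0.07 after sleep deprivation, Syt1 of neurons (1 of 6) -0.05, and none of the 6 astrocyte markers was called. Of microglia P2ry12 gave -0.16 and C1qa 0.10 (2 of 6 called), and of endothelial cells Slco1a4 gave -0.25, Cldn5 -0.07 and Flt1 0.09 (3 of 4). The summed level of each of these lists overlapped between conditions, and the part of cell type markers in the members' changes was not tested. The 3' minus 5' signal of Gapdh, a sign of RNA integrity, differed by -0.0106 between conditions (permutation p = 0.269) and that of Actb by 0.0089 (permutation p = 0.601). In whole brain, fewer cells of a type and less RNA per cell cannot be told apart.

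After 6 h without sleep, RNA of the splicing activator Tra2a, of Srsf3, Srsf10, Hnrnpc, Hnrnpm, Hnrnpa2b1 and Hnrnph1, and of the kinases Clk1 and Clk3 rose, while RNA of Hnrnpdl, Hnrnpr, Hnrnpd and Srsf5 fell. Averaged over strain and time, 63 of 109 probe sets were called (57.8%), 38 higher and 25 lower, where 17.3% of all probe sets were (8.31% higher and 9.00% lower). Among all probe sets above the median level 28.6% were called, and 61 of the 98 members above that level. The changes were small: the median size was 0.12 log2 units among the rises and 0.13 among the falls, and the largest was 0.38. The median effect over the 109 was 0.03 and its median size 0.08, against 0.00 and 0.03 over all probe sets. By gene, 29 of the 36 had a called probe set: 16 rose only, 12 fell only, and 1, Srsf6, did both. A gene with several probe sets, as 24 of the 36 are, has more chances of a call. The share of all genes with any called probe set was not computed, so this count has no background. Of the SR probe sets 16 rose and 7 fell, of the hnRNP ones 14 rose and 17 fell, of the Clk ones 2 rose and none fell, and of Tra2a, Tra2b and Arglu1 6 rose and 1 fell. Counting only the brightest probe set of each gene, 15 genes rose and 7 fell (61.1%), where 22.1% of 18193 genes were called (9.95% higher and 12.2% lower).

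**Figure D1:**
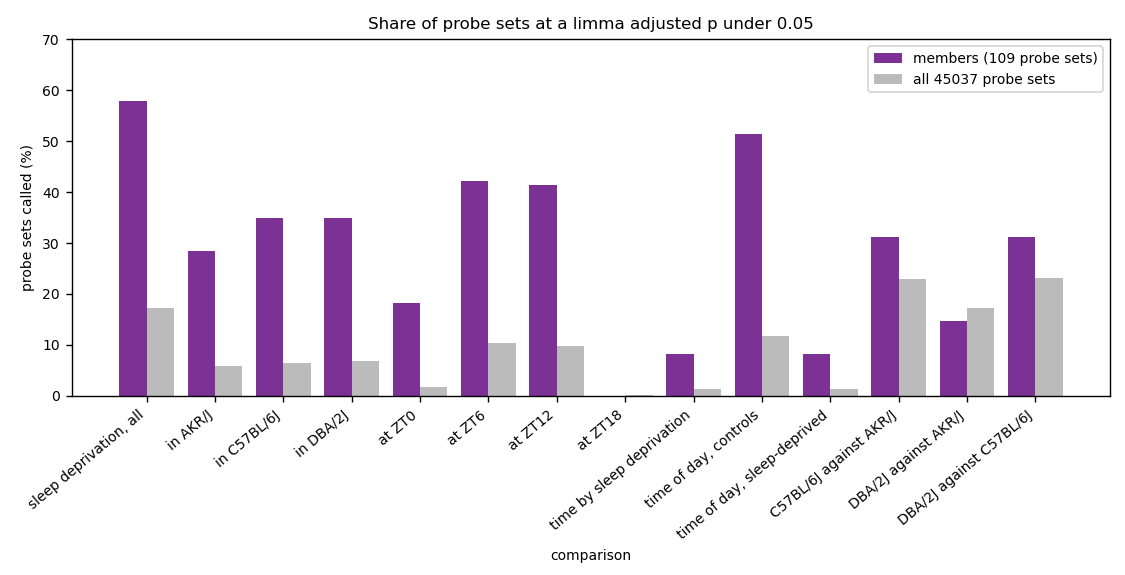
Percent of probe sets called at a limma adjusted p under 0.05 (vertical axis) in each comparison (horizontal axis), for the 109 splicing factor and Clk probe sets (purple) and all 45037 (grey). The members' share was 57.8% against 17.3% over all sleep deprivation comparisons, 0 against 0.0777% at ZT18, and 31.2%, 14.7% and 31.2% against 22.9%, 17.3% and 23.2% in the strain comparisons.

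**Figure D2:**
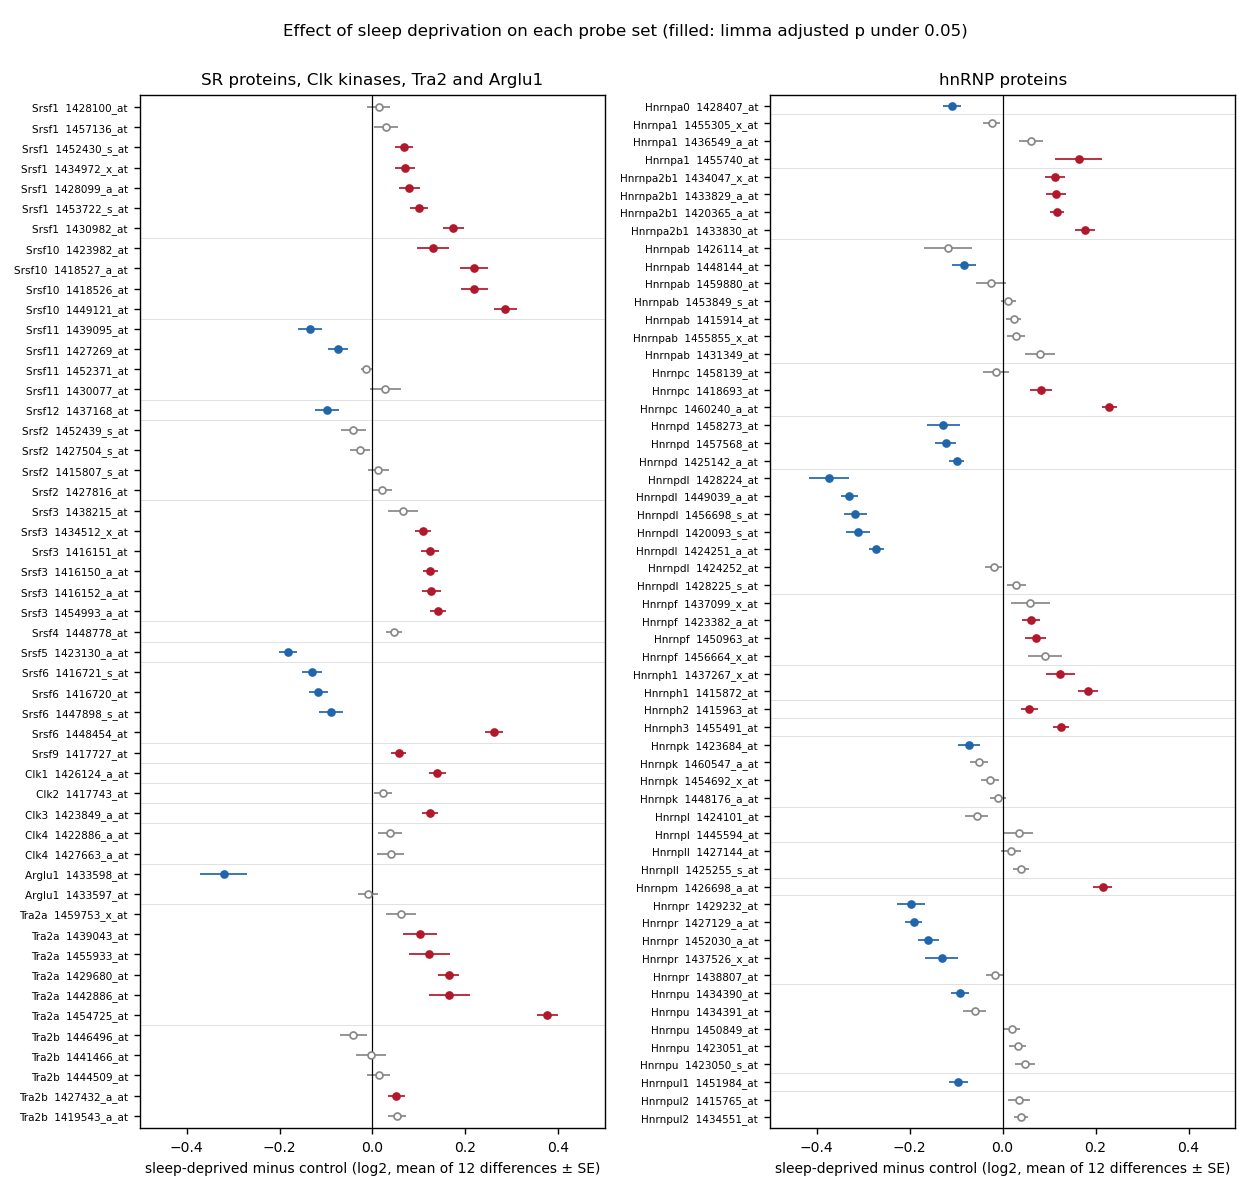
Effect of sleep deprivation (horizontal axis, log2, averaged over the 12 strain and time comparisons, bars ± SE) on each of the 109 probe sets (vertical axis), with SR, Clk, Arglu1 and Tra2 genes on the left and hnRNP genes on the right; filled points were called, red higher and blue lower. Tra2a 1454725_at lies farthest to the right at 0.38 and Hnrnpdl 1428224_at farthest to the left at -0.37, and the Srsf6 probe sets lie on both sides of 0.

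Tra2a encodes a splicing activator that binds GAA-rich exonic enhancers. On its brightest probe set, 1454725_at, control arrays ran from 8.18 to 9.15 with a median of 8.66, and sleep-deprived arrays from 8.74 to 9.36 with a median of 9.04. The conditions overlapped over all times, yet 10 of 35 sleep-deprived arrays lay above the highest control and 19 of 36 controls below the lowest sleep-deprived array. The difference was 0.38 ± 0.02 (SE, 1.30-fold, limma adjusted p = 1.84e-20). Sleep-deprived means were higher in 12 of 12 comparisons within strain and time, and the groups did not overlap in 9 of them. Such counts of separate groups or arrays, here and for the genes below, were made for the members only. Their share over all probe sets was not computed. At ZT6 the controls read 8.18, 8.29 and 8.40 in AKR/J, 8.45, 8.46 and 8.48 in C57BL/6J, and 8.38, 8.40 and 8.41 in DBA/2J. The sleep-deprived arrays at ZT6 read 8.81, 8.88 and 8.93 in AKR/J, 8.93, 8.98 and 9.17 in C57BL/6J, and 8.87, 8.93 and 8.98 in DBA/2J. Every sleep-deprived array at that time was therefore above every control array of the 3 strains.

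The other Tra2a probe sets moved less. 1429680_at rose by 0.16 ± 0.02 (adjusted p = 1.00e-07), 1442886_at by 0.17 ± 0.04, 1455933_at by 0.12 ± 0.04 and the dim 1439043_at by 0.10 ± 0.04. Leaving out 1 array ended the call of 1439043_at in 20 of 71 cases and of 1455933_at in 29, with an adjusted p of at most 0.0706 and 0.0693. The dimmest one, 1459753_x_at, gave 0.06 and did not pass (adjusted p = 0.208). Its paralog Tra2b, which binds the same kind of enhancer, was nearly level: 1 of 5 probe sets, 1427432_a_at, rose by 0.05 ± 0.02 (adjusted p = 0.0312, at most 0.0522 when 1 array was left out), 1419543_a_at gave 0.05 (adjusted p = 0.0569), and the 3 others, all of low level, gave between -0.04 and 0.01.

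Arglu1 differed between its pair of probe sets. On 1433598_at controls ran from 7.95 to 9.03 (median 8.27) and sleep-deprived arrays from 7.53 to 8.78 (median 7.95), a fall of 0.32 ± 0.05 (adjusted p = 1.81e-06; lower in 11 of 12 comparisons). The exception was C57BL/6J at ZT6, with controls at 8.16, 8.22 and 8.63 and sleep-deprived arrays at 8.26, 8.57 and 8.78. Without the 6 arrays that stood apart, 2 of which are in that group, the difference there was -0.07 and the overall one -0.31. The brighter probe set 1433597_at had a median of 9.62 in both conditions, with a difference of -0.01 ± 0.02 (adjusted p = 0.855).

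Among the SR genes, Srsf10, whose protein represses splicing when it is dephosphorylated, rose on all 4 probe sets, by 0.13 to 0.29. On 1449121_at controls ran from 6.89 to 7.66 (median 7.39) and sleep-deprived arrays from 7.42 to 7.84 (median 7.61). Of the controls 22 lay below the lowest sleep-deprived array, and the difference was 0.29 ± 0.02 (adjusted p = 2.38e-14), higher in 12 of 12 comparisons. Srsf3, the smallest SR protein, rose on 5 of 6 probe sets by 0.11 to 0.14. Its 1454993_a_at ran from 9.35 to 9.73 in controls and from 9.56 to 9.93 after sleep deprivation, so the conditions overlapped. Below the lowest sleep-deprived array lay 16 of 36 controls, and above the highest control lay 15 of 35 sleep-deprived arrays. Srsf1, the founding SR protein, rose on 5 of 7 probe sets, most on 1430982_at (0.17 ± 0.02, adjusted p = 3.52e-08). Srsf9, which resembles Srsf1 in sequence, rose by 0.06 ± 0.02 on its single probe set.

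Srsf5, another SR activator, was the clearest fall of this family. Control arrays ran from 11.58 to 12.01 (median 11.78) and sleep-deprived arrays from 11.34 to 11.82 (median 11.61). Of the sleep-deprived arrays 13 were below the lowest control, and the fall of 0.18 ± 0.02 (adjusted p = 3.34e-11) held in 12 of 12 comparisons, with separate groups in 10. Srsf11 fell on 2 of 4 probe sets, by 0.13 ± 0.03 and 0.07 ± 0.02, while its brightest, 1452371_at, gave -0.01. Srsf12 fell by 0.10 ± 0.03. Srsf2, an SR protein of the speckle core, gave no call on 4 probe sets (-0.04 to 0.02), and neither did Srsf4 (0.05 ± 0.02, adjusted p = 0.0524).

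Srsf6, an SR protein that regulates exon inclusion in neuronal transcripts such as that of tau, gave opposite results on its probe sets. On 1448454_at controls ran from 9.49 to 10.18 (median 9.80) and sleep-deprived arrays from 9.85 to 10.21 (median 10.11), and 20 controls were below the lowest sleep-deprived array. This probe set rose by 0.26 ± 0.02 (adjusted p = 3.52e-16; 12 of 12 comparisons). On 1416721_s_at, of similar level, controls ran from 9.53 to 9.96 (median 9.84) and sleep-deprived arrays from 9.43 to 9.87 (median 9.70), a fall of 0.13 ± 0.02 (adjusted p = 3.34e-06). 1416720_at fell by 0.12 ± 0.02 and 1447898_s_at by 0.09 ± 0.03. The difference between 1448454_at and 1416721_s_at in their response was 0.39 ± 0.02 log2 units (limma adjusted p = 1.66e-18 over all pairs of probe sets of 1 gene).

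Among the hnRNP genes, Hnrnpc, whose protein binds uridine tracts in nascent RNA, showed the cleanest rise. On 1460240_a_at controls ran from 10.83 to 11.27 (median 11.04) and sleep-deprived arrays from 11.00 to 11.55 (median 11.29). Of the 35 sleep-deprived arrays 21 exceeded every control, and the groups were separate in 11 of 12 comparisons. The rise was 0.23 ± 0.02 (1.17-fold, adjusted p = 3.77e-17). Its 1418693_at rose by 0.08 ± 0.02, and the dim 1458139_at gave -0.01.

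Hnrnpm, a splicing regulator that also takes part in the early heat shock response, rose by 0.22 ± 0.02 (adjusted p = 5.17e-12; controls 8.50 to 9.14, sleep-deprived 8.85 to 9.18). Hnrnph1, which binds G-rich tracts, rose on both probe sets, by 0.18 ± 0.02 on 1415872_at, where 26 of 36 controls were below the lowest sleep-deprived array. Its relatives Hnrnph2 and Hnrnph3 rose by 0.06 ± 0.02 and 0.13 ± 0.02, and Hnrnpf, of the same subfamily, by 0.06 and 0.07 on 2 of 4 probe sets. Hnrnph2 lost its call without 1 AKR/J sleep-deprived array of ZT18 (adjusted p = 0.0543). Hnrnpa2b1, which binds RNA transport signals in neuronal mRNA, rose on all 4 probe sets, by 0.11 to 0.18. Hnrnpa1 rose on 1 of 3 probe sets, the dimmest (0.16 ± 0.05), where without the 6 arrays that stood apart the value was 0.14 and not called, and the other probe sets of that gene gave -0.02 and 0.06.

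Hnrnpdl, an AU-rich element binding protein related to Hnrnpd, had the largest fall of the family. On 1449039_a_at controls ran from 9.55 to 10.32 (median 9.99) and sleep-deprived arrays from 9.49 to 9.80 (median 9.67). The sleep-deprived arrays filled the lower part of the control range and 4 lay beneath it. The fall was 0.33 ± 0.02 (1.26-fold; adjusted p = 3.12e-21) and held in 12 of 12 comparisons. The probe sets 1424251_a_at, 1420093_s_at, 1456698_s_at and 1428224_at fell by 0.27, 0.31, 0.32 and 0.37. The 2 remaining ones, 1424252_at and 1428225_s_at, were not called, at -0.02 ± 0.02 and 0.03 ± 0.02. Each of the 5 that fell differed from each of these 2 in the test between probe sets (largest adjusted p = 1.55e-09).

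Hnrnpr, which binds neuronal mRNAs and is found in axons, fell on 4 of 5 probe sets by 0.13 to 0.20. On 1427129_a_at controls ran from 9.95 to 10.31 (median 10.17) and sleep-deprived arrays from 9.72 to 10.15 (median 9.95), with 17 of the latter below every control. Hnrnpd, which promotes decay of AU-rich mRNAs, fell on all 3 probe sets by 0.10 to 0.13. Single falls were found for Hnrnpa0 (0.11 ± 0.02), Hnrnpul1 (0.10 ± 0.02), Hnrnpu (0.09 on 1 of 5 probe sets), Hnrnpab (0.08 on 1 of 7) and Hnrnpk (0.07 on 1 of 4). Hnrnpl, Hnrnpll and Hnrnpul2 had no called probe set, with effects between -0.06 and 0.04.

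Of the kinases that phosphorylate SR proteins, Clk1 and Clk3 rose and Clk2 and Clk4 did not pass. On the Clk1 probe set controls ran from 10.05 to 10.87 (median 10.60) and sleep-deprived arrays from 10.47 to 10.92 (median 10.74). The distributions overlapped widely over the day, with 9 controls below the lowest sleep-deprived array and separate groups in 7 of 12 comparisons. The rise was 0.14 ± 0.02 (adjusted p = 3.88e-08; higher in 11 of 12). Clk3 ran from 8.11 to 8.54 in controls and from 8.26 to 8.54 after sleep deprivation, and rose by 0.12 ± 0.02 (adjusted p = 1.21e-07; 12 of 12). Clk2 gave 0.02 ± 0.02 (adjusted p = 0.538), and the pair of Clk4 probe sets gave 0.04 ± 0.03 each (adjusted p = 0.409 and 0.437).

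Differences among probe sets of 1 gene were tested for all 180 pairs over the 24 genes with several. The response differed in 51 pairs, where 11.2% of all 30372 such pairs differed, and in 15 of the 24 genes. The share of all genes with such a pair was not computed. Pairs of 1 gene share probe sets and are not independent, and 11 of the 51 were of Hnrnpdl. The 10 genes with the smallest p were Srsf6, Hnrnpdl, Tra2a, Hnrnpr, Hnrnpc, Arglu1, Hnrnpu, Srsf1, Srsf11 and Hnrnpab. Pairs that differed with both probe sets called in opposite directions were 3 of the 180, against 279 of all 30372 (0.919%). All 3 were of Srsf6, which has 6 pairs, and they share the Srsf6 probe set that rose, so they are not independent. Where both probe sets lay above the median level, 43 of 141 pairs differed. The share among all pairs above that level was not computed, so this count has no background of its own. No difference was called among the probe sets of Srsf3, Srsf2, Hnrnpd and Hnrnpf, or between the pairs of Clk4 and Hnrnph1. The positions of the probes within the transcripts were not analysed here.

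**Figure D3:**
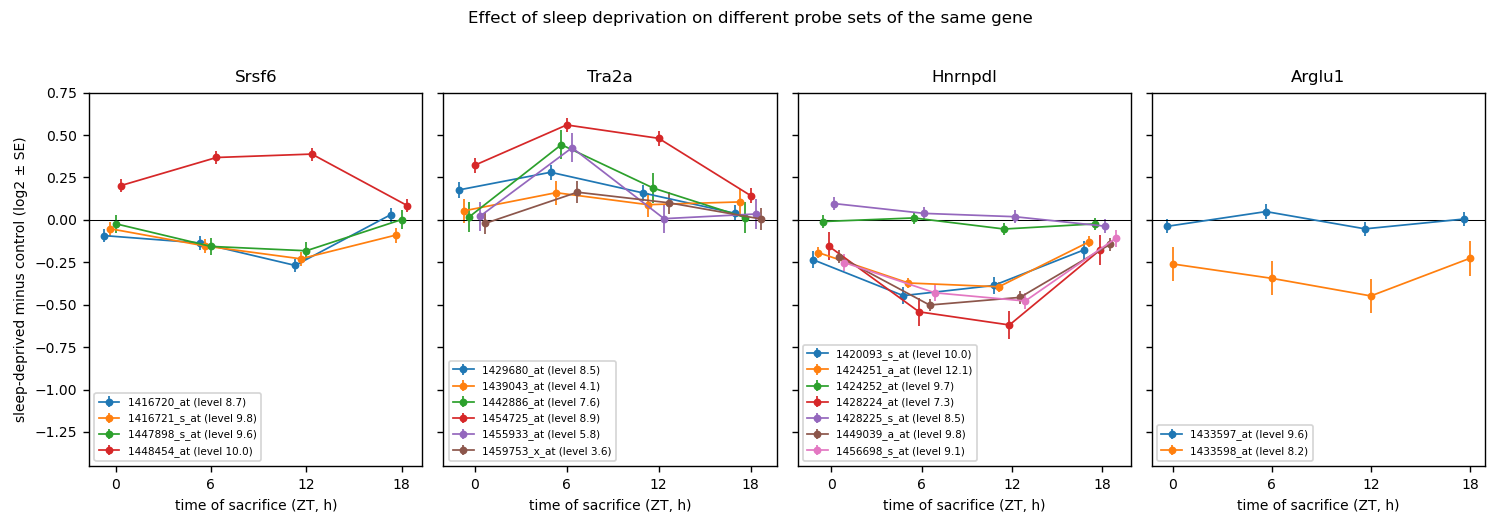
Effect of sleep deprivation (vertical axis, log2 ± SE, mean of the 3 strains) by time of sacrifice (horizontal axis, ZT in hours) for each probe set of Srsf6, Tra2a, Hnrnpdl and Arglu1; the legend gives each probe set's mean level. In Srsf6 1 probe set lies above 0 at every time and the others mostly below, in Hnrnpdl 5 fall together while 2 stay near 0, and in Arglu1 1 of 2 falls.

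Sleep deprivation gave 31 called probe sets in AKR/J (background 5.85%), with 20 higher and 11 lower (background 3.40% and 2.45%), 38 in C57BL/6J (background 6.45%), with 25 and 13 (3.27% and 3.18%), and 38 in DBA/2J (background 6.90%), with 18 and 20 (3.27% and 3.63%). Without the 6 arrays that stood apart the counts were 30 in AKR/J (background 5.39%), 31 in C57BL/6J (background 4.19%) and 46 in DBA/2J (background 8.63%). Called with 1 sign in every strain were 22 probe sets of 14 genes (2.19% of all probe sets): 15 higher (1.30% of all), of Tra2a, Srsf1, Srsf3, Srsf6, Srsf10, Clk3, Hnrnpa2b1, Hnrnpc, Hnrnph1, Hnrnph3 and Hnrnpm, and 7 lower (0.888% of all), of Hnrnpdl, Hnrnpr and Srsf5. In AKR/J the call of Clk3 ended in 4 of the fits that left out 1 array (adjusted p at most 0.109), and that of Hnrnph3 in 1 (0.1185). Both genes have 1 probe set. In the same fits Tra2a 1429680_at lost its AKR/J call in 16 and Srsf10 1418527_a_at its C57BL/6J call in 9. Calls of opposite sign in different strains did not occur among the 109. Tra2a 1454725_at rose by 0.35 ± 0.04 in AKR/J, 0.41 ± 0.04 in C57BL/6J and 0.37 ± 0.04 in DBA/2J. Clk1 gave 0.07 in AKR/J, not called, and rose by 0.20 ± 0.03 in C57BL/6J and 0.15 ± 0.03 in DBA/2J. Arglu1 1433598_at gave -0.15 in C57BL/6J, not called, and fell by 0.41 ± 0.09 in DBA/2J. Srsf12 fell by 0.20 ± 0.04 in DBA/2J and gave -0.03 and -0.07 in the others.

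None of these differences among strains passed its own test. The F test of strain by sleep deprivation called 0 of 109 members with limma (0.0222% of all probe sets). An unadjusted p under 0.05 in this test was found for 8 members, and the share of all probe sets with such a p was not computed. For Arglu1 1433598_at the adjusted p of this F test was 0.70 and for Clk1 0.62. The alternatives tried likewise gave 0.

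The number of called members differed among the times of sacrifice, as did the background. Such counts do not test whether the response differs, which is the F test of the next paragraph. At ZT0 20 members were called (background 1.71%), 15 higher and 5 lower (background 1.26% and 0.453%). At ZT6 it was 46 (background 10.4%), 25 higher and 21 lower (5.13% and 5.29%), and at ZT12 45 (background 9.75%), 24 higher and 21 lower (4.71% and 5.04%). At ZT18 limma called 0 (background 0.0777%, 0.0600% higher and 0.0178% lower), and the alternative fits called at most 2. An unadjusted limma p under 0.05 was found there for 23 members, and the share of all probe sets with such a p was not computed. When only the arrays of ZT0 entered the fit, the count at ZT0 was 5, and the background of that fit was not computed. Tra2a 1454725_at rose by 0.32 at ZT0, 0.56 at ZT6 and 0.48 at ZT12, and gave 0.14 at ZT18. Srsf10 1449121_at gave 0.15 at ZT0, rose by 0.44 at ZT6 and 0.43 at ZT12, and gave 0.12 at ZT18. Another probe set of that gene, 1418527_a_at, rose by 0.33 ± 0.06 at ZT0 (limma adjusted p = 2.41e-04). The course of Srsf10 over the times thus depended on the probe set. Hnrnpdl 1449039_a_at fell by 0.22, 0.50 and 0.46 and gave -0.14 at ZT18. Clk1 rose by 0.25 at ZT6 and 0.18 at ZT12 and gave 0.07 at ZT0 and at ZT18.

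The F test of time by sleep deprivation, which asks whether the 4 effects differ, called 9 of 109 members (8.3%, against 1.40% of all probe sets). They were 4 probe sets of Hnrnpdl (smallest adjusted p = 1.69e-06), Tra2a 1454725_at (adjusted p = 3.82e-05), Srsf6 1448454_at (5.37e-04) and 1416720_at, Srsf10 1449121_at (6.69e-04) and Hnrnpd 1425142_a_at (0.0211). The last lost its call without 1 sleep-deprived AKR/J array of ZT18 (adjusted p = 0.0589). With arrays weighted by their residual spread the count was 22, and the background under that fit was not computed.

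Within single strain and time groups, of 3 arrays per condition, the ZT6 comparison called 17 members in AKR/J (background 2.58%), 20 in DBA/2J (background 3.63%) and 25 in C57BL/6J (background 7.47%). Of the 3 sleep-deprived C57BL/6J arrays at ZT6, 2 stood apart on the spike-in controls. Without the 6 arrays that did so, the C57BL/6J count fell to 7 (background 0.526%), while AKR/J had 13 (background 1.94%) and DBA/2J 25 (background 5.03%). The same 6 arrays moved the overall count only from 63 to 65.

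In undisturbed mice, the mean signal of Tra2a 1454725_at, Srsf6 1448454_at, Srsf10 1449121_at and Clk1 was lowest at ZT6, and that of Hnrnpdl 1449039_a_at and Srsf5 at ZT18. The F test of time in controls called 56 of 109 members (51.4%; background 11.7%), 21 of 33 SR probe sets, 24 of 58 hnRNP ones and 4 of the 5 of the Clk genes. Of the 56, 34 had their highest control mean at ZT18 (60.7%, against 39.3% of the 5279 probe sets called) and 23 their lowest at ZT6 (41.1%, against 27.6%). The 10 genes with the smallest p were Tra2a, Hnrnpdl, Srsf6, Clk1, Hnrnpc, Srsf10, Srsf1, Srsf5, Hnrnpm and Hnrnpr.

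Tra2a 1454725_at had control means of 8.83 ± 0.08, 8.38 ± 0.10, 8.50 ± 0.09 and 9.02 ± 0.09 at ZT0, ZT6, ZT12 and ZT18 (SD, n = 9), a range of 0.64 log2 units (limma adjusted p = 6.78e-18). After sleep deprivation the means were 9.15 ± 0.17, 8.94 ± 0.10 and 8.99 ± 0.12 (n = 9) and 9.16 ± 0.13 (n = 8). The sleep-deprived level at the control trough, ZT6, was thus close to the control level of ZT18, and the conditions differed least at the control peak.

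Clk1 followed a like course in controls, with means of 10.65 ± 0.06, 10.34 ± 0.13, 10.59 ± 0.12 and 10.71 ± 0.15, and 10.71 ± 0.07, 10.58 ± 0.09, 10.77 ± 0.09 and 10.78 ± 0.07 after sleep deprivation. Its lowest mean was at ZT6 in both conditions. Srsf6 1448454_at had control means of 9.92 ± 0.12, 9.66 ± 0.10, 9.72 ± 0.08 and 10.06 ± 0.07, against 10.12 ± 0.06, 10.03 ± 0.09, 10.11 ± 0.07 and 10.14 ± 0.03 after sleep deprivation, a nearly flat course.

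Hnrnpdl and Srsf5, which fell, had their control peak in the light phase or at its end. Hnrnpdl 1449039_a_at had control means of 9.88 ± 0.09, 10.16 ± 0.08, 10.16 ± 0.08 and 9.74 ± 0.09 (adjusted p = 1.79e-15), against 9.66 ± 0.07, 9.66 ± 0.09, 9.71 ± 0.06 and 9.59 ± 0.09 after sleep deprivation. Srsf5 had 11.76 ± 0.06, 11.93 ± 0.05, 11.83 ± 0.07 and 11.66 ± 0.04, against 11.66 ± 0.10, 11.67 ± 0.11, 11.61 ± 0.08 and 11.52 ± 0.13. For Hnrnpdl every sleep-deprived mean was below the lowest control mean of the day, that of ZT18, and for Srsf5 those of ZT12 and ZT18 were.

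**Figure D4:**
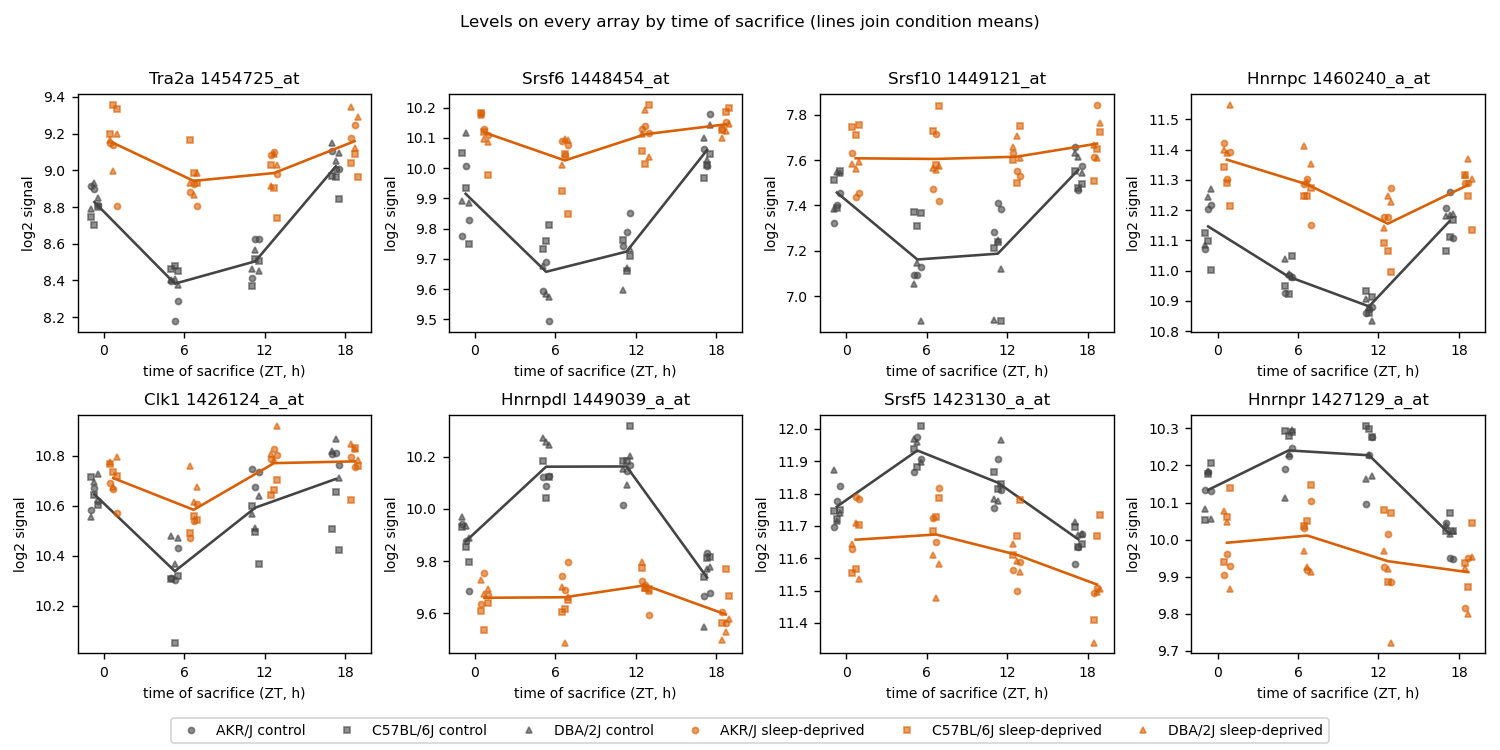
log2 signal on every array (vertical axis) by time of sacrifice (horizontal axis, ZT in hours) for 8 probe sets, with controls in grey and sleep-deprived arrays in orange, a symbol for each strain, and lines joining the mean of each condition. The control lines of Tra2a, Srsf6, Srsf10 and Clk1 dip at ZT6 and those of Hnrnpdl, Srsf5 and Hnrnpr peak there or at ZT12, and the 2 conditions come closest at ZT18 in most panels.

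After sleep deprivation time of day was called for 9 of 109 members (8.3%; background 1.42%), of Hnrnpc, Tra2a, Tra2b, Clk1, Srsf1, Srsf2, Hnrnpll and both probe sets of Clk4. Leaving out 1 array ended the call of Clk4 1422886_a_at in 19 of 71 cases (adjusted p at most 0.0965), of Clk4 1427663_a_at in 2 (at most 0.0756) and of Hnrnpll 1425255_s_at in 1 (0.104, without AKR/J sleep-deprived array 2 of ZT18). Hnrnpc 1460240_a_at had a range of 0.21 (adjusted p = 1.22e-04), with means of 11.37, 11.28, 11.16 and 11.28 over the day. Tra2b 1419543_a_at, which was not called for sleep deprivation, had a range of 0.21 (adjusted p = 8.11e-04). This count depended on the fit: it was 17 over probe sets above the median level, 15 with trended and robust variances, 24 with array weights, and 14 without either the C57BL/6J sleep-deprived array 3 of ZT0 or array 2 of ZT6. The background under these fits was not computed. Whether the daily course differs between conditions is the test of time by sleep deprivation given above, since a call in 1 condition alone does not show it.

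Between strains, in controls, the members' share of calls was near the background. C57BL/6J differed from AKR/J in 34 of 109 probe sets (31.2%; background 22.9%), 16 higher and 18 lower (background 9.74% and 13.1%). DBA/2J differed from AKR/J in 16 (14.7%; background 17.3%), 8 higher and 8 lower (background 9.01% and 8.30%). From C57BL/6J it differed in 34 (31.2%; background 23.2%), 20 higher and 14 lower (background 13.6% and 9.55%). A few single probe sets differed by more than any change after sleep deprivation. Sequence variants of the strains under the probes were not analysed here, so a difference on 1 probe set is one of signal, and whether the RNA level differs was not tested.

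The largest was Tra2a 1442886_at, at 8.06 to 8.84 in AKR/J controls (median 8.35), 5.53 to 6.46 in C57BL/6J (median 5.80) and 8.0 to 8.69 in DBA/2J (median 8.31). C57BL/6J was separate from both, with every array lower, and differed from AKR/J by -2.48 ± 0.08 (SE, 12 arrays per strain; limma adjusted p = 6.45e-35). Tra2a 1455933_at was also lower there (-0.91 ± 0.07), whereas the bright 1454725_at and 1429680_at gave -0.04 and 0.03 (adjusted p = 0.542 and 0.654).

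Srsf2 also differed among its probe sets, but unlike for Tra2a the brightest one, 1427504_s_at, was among those lower in C57BL/6J. 1452439_s_at ran from 8.48 to 8.93 in AKR/J, 7.49 to 8.09 in C57BL/6J and 8.42 to 8.98 in DBA/2J, a difference of -0.89 ± 0.05 between C57BL/6J and AKR/J. 1427504_s_at and 1415807_s_at were lower in C57BL/6J (-0.30 and -0.25), and 1427816_at gave 0.02. C57BL/6J was also lower than AKR/J for Srsf11 1430077_at (-0.42 ± 0.06) and Hnrnpc 1418693_at (-0.48 ± 0.04), neither of which is the brightest probe set of its gene. The 16 higher probe sets, beside 18 lower, included Hnrnpr 1429232_at (0.28 ± 0.05) and Srsf1 1428100_at (0.21 ± 0.04). DBA/2J was higher than AKR/J for 8 probe sets and lower for 8, and Srsf6 1416720_at was among the higher ones (0.16 ± 0.04).

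Clk4 was low in DBA/2J on both of its probe sets. On 1422886_a_at AKR/J ran from 7.98 to 8.49 (median 8.23), C57BL/6J from 7.94 to 8.24 (median 8.08) and DBA/2J from 7.29 to 7.81 (median 7.48). All 12 DBA/2J controls were below every control of the other strains, with a difference of -0.72 ± 0.05 from AKR/J (adjusted p = 2.52e-20) and of -0.57 ± 0.05 from C57BL/6J (adjusted p = 3.54e-16). On 1427663_a_at the differences were -0.71 and -0.58. Hnrnpab 1448144_at was lower in DBA/2J than in AKR/J (-0.34 ± 0.05).

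**Figure D5:**
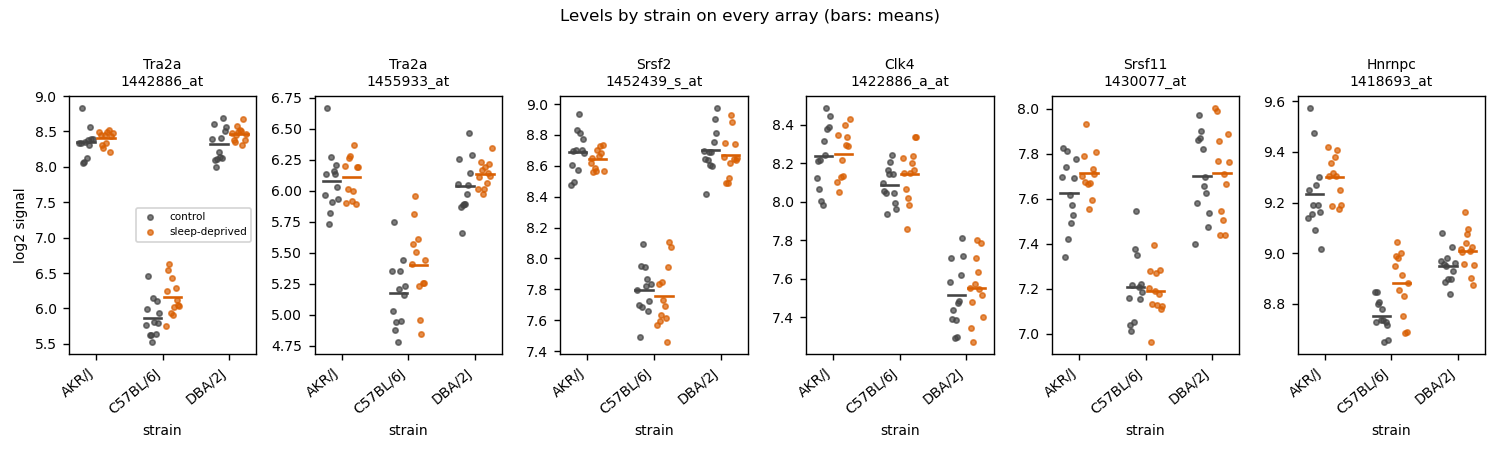
log2 signal on every array (vertical axis, each panel with its own range) by strain (horizontal axis) for 6 probe sets that differed between strains, controls in grey and sleep-deprived arrays in orange, with bars at the means. C57BL/6J stands low for both Tra2a probe sets, Srsf2, Srsf11 and Hnrnpc, and DBA/2J for Clk4, in both conditions.

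Other genes of RNA splicing were followed on their brightest probe set in lists by role. Of 12 kinases and partners of SR protein phosphorylation 3 rose and none fell (25%, against 22.1% of all genes; median 0.01): Acin1, an apoptosis-linked nuclear splicing protein, by 0.23 ± 0.02 (adjusted p = 3.92e-11), Prpf4b, a kinase of the spliceosome, by 0.22 ± 0.02 (adjusted p = 1.08e-11) and Cdk13 by 0.09 ± 0.03. Srpk2, a cytoplasmic SR protein kinase, gave 0.04 (adjusted p = 0.0856). Of 19 SR-related and speckle proteins 2 rose and 6 fell (42.1%, median 0.01). The falls included Sugp1 (0.21), Luc7l2 (0.17), Bclaf1 (0.17) and Rsrp1 (0.13). The rises were those of Nktr (0.17) and the RNA helicase Ddx39b (0.06). Of 32 measured core spliceosome genes 7 rose and 1 fell (25%; median 0.02), with rises of Prpf3 (0.11), Sf1 (0.09), Sf3a1 (0.09) and Cdc5l (0.07) and the fall that of Snrpb2 (0.07).

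Of 31 measured tissue-specific splicing regulators 4 rose and 2 fell (19.4%; median 0.00). Celf6 rose by 0.13, Khdrbs3 by 0.11, Elavl4 by 0.07 and Pcbp1 by 0.05, and the neuronal regulators Rbfox1 and Ptbp2 fell by 0.08 and 0.06. Of 15 measured hnRNP-related RNA-binding proteins 1 rose and 5 fell (40%; median -0.03), with Rbmx at -0.18, Syncrip at -0.12 and Tardbp at 0.08. The fall of the cold-inducible Cirbp, at -0.69, was larger than that of any member. Of 11 measured genes of nonsense-mediated decay, the pathway that removes transcripts with poison exons, Smg1 and Upf2 rose by 0.08 and 0.06 and none fell (18.2%; median 0.00).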

How the data were processed

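Whole-brain RNA was measured on 71 arrays. RMA gave the log2 signal of each probe set that the authors deposited, per the submitters' processing notes, and no further setting of RMA is given in the sources used here. Each array held a pool of 3 mice, so p-values measure the spread between pools. No counts underlie the values and the number of arrays limits the precision.

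Each group of strain, condition and time had its own mean in 1 limma model (version 3.58.1, R 4.3.3), which left 47 residual degrees of freedom. All p-values are two-sided and were adjusted by the Benjamini-Hochberg method across 45037 probe sets, which leaves out the 64 controls of the array. Sleep deprivation was tested as the average of 12 differences, per strain, per time and per group, with F tests for interactions and time of day. Pairs of probe sets sharing 1 symbol were tested on their difference per array. The scripts were tested on simulated data. Figures were made with Python 3.11.15 and matplotlib 3.10.9.

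Symbols came from the platform annotation, updated through RefSeq (GRCm38.p6), which also gave the promoters. The members and gene lists were chosen with earlier results of these data known. A naming rule chose every probe set of Clk1 to Clk4, Tra2a, Tra2b and Arglu1, and up to 4 genes per list. It also chose the 10 genes of smallest p in F and pair tests. Per comparison it chose the 10 largest rises and falls among called members (1 probe set per gene, smallest p). For single strains, single times and strain differences only part of these is given in the text. Other members are named to account for the whole set. Ddx39b, Snrpb2, Pcbp1 and Ptbp2 were named after their values were seen, to complete small counts, and Luc7l2 for its large fall. The alternatives were quantile normalization, median centring, a filter on level, eBayes with trended and robust variances, weights per array, a replicate block, the spike-in batch as a block or left out, fits of the compared groups alone, a minimum change of 0.25, 1 probe set per gene and leaving out each array.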

Additional observations from a re-analysis of the deposited data

Results flagged for a closer look

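The effect of sleep deprivation differed among the 4 times of sacrifice for 9 of the 109 probe sets (limma F test of time by sleep deprivation, adjusted p under 0.05); each value is the range between the 4 effects in log2 units. Hnrnpdl had ranges of 0.3585 on 1449039_a_at, 0.2653 on 1424251_a_at, 0.3691 on 1456698_s_at and 0.4650 on 1428224_at. On each of them the fall was larger at ZT6 and ZT12 than at ZT0 and ZT18. Tra2a 1454725_at had a range of 0.4166, from 0.56 at ZT6 to 0.14 at ZT18. Srsf10 1449121_at had a range of 0.3219, from 0.44 at ZT6 to 0.12 at ZT18. Srsf6 had a range of 0.3034 on 1448454_at, which rose, and of 0.2985 on 1416720_at, which fell at ZT6 and ZT12. Hnrnpd 1425142_a_at had a range of 0.2070, from -0.21 at ZT12 to 0.00 at ZT18. Single arrays within groups of 2 or 3 were not tested as outliers.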

How the results depend on the processing

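Of 151 alternative counts of called members or of called pairs of probe sets, 128 stayed within 1.5 times the reported one. A minimum change of 0.25 log2 left 9 called members for the average effect, 11 in AKR/J, 9 in C57BL/6J, 11 in DBA/2J, 4 at ZT0, 19 at ZT6 and 17 at ZT12. It left 8, 7 and 10 in the strain comparisons (C57BL/6J with AKR/J, DBA/2J with AKR/J, DBA/2J with C57BL/6J), 23 for time in controls and 1 for time after sleep deprivation. At ZT18 the count of 0 became 1 above the median level, with trended and robust variances, without the 6 arrays that stood apart and with these as a block, and 2 with array weights. Time after sleep deprivation gave 17 above the median level, 15 with trended and robust variances and 24 with array weights, and 7 to 14 when leaving out 1 array; time by sleep deprivation gave 22 with array weights. Fitting only the arrays of ZT0 gave 5 there. With 1 probe set per gene, 22 genes were called, a count out of 36 genes and not out of 109 probe sets. The share over all probe sets or genes was computed only for this setting and without the 6 arrays. The other counts therefore show how the members' own numbers move, without a background beside them.

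The correlation of same-numbered arrays of the 2 conditions ran from -0.275 to 0.603 over 35 pairs (median 0.021). It was over 0.1 in 6, including all 3 of C57BL/6J at ZT0 (0.369, 0.228 and 0.603), whose arrays numbered 3 both stood apart on the spike-in controls. As not every pair passed 0.1, the numbers were not taken as pairs. With the replicate block 64 members were called for the average effect, 46 at ZT6 and 0 at ZT18, and no count of called members moved by more than 1.5 times. The average effect's count ran from 62 to 67 when leaving out 1 array. The effect on the dim probe set Tra2b 1441466_at, which was not called, changed sign when single arrays were left out, from -0.0125 to 0.0103; no other effect of a named probe set changed sign. The array number and the low level of some probe sets limit what can be called.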
